A study of Mus musculus with 8 samples.

Results

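The genes described here encode proteins of myeloid granules and lysozyme: *Mpo*, *Elane*, *Prtn3*, *Ctsg*, *Ms4a3*, *Lyz2*, *Fcnb*, *Hp*, *Ltf* and *Camp*. They are 10 of the 23284 gene symbols in the expression tables, were chosen by name, and all 10 were found. They were followed in 8 RNA-seq libraries of bone marrow progenitors from B6CBAF1/J mice. IdHPCs, LSK cells kept in culture on TSt-4 stromal cells by a human Id3 virus, were represented by 2 control (*Pcgf1* fl/fl) and 2 *Pcgf1*-KO (*Pcgf1* -/-) libraries. LMPPs, sorted lymphoid-primed multipotent progenitors, were likewise represented by 2 libraries labelled control (*Pcgf1* fl/fl) and 2 labelled *Pcgf1*-KO (*Pcgf1* -/-). PCGF1 is a subunit of a variant Polycomb repressive complex 1. The floxed allele loses exons 2 to 7 when ERT2-Cre, which is not restricted to a cell type, is activated with 4-OHT. *Pcgf1*-KO IdHPCs were treated with 4-OHT for 4 days, and the treatment of the control IdHPCs is not given for the RNA-seq, while ethanol is named for controls of another IdHPC experiment. LMPPs carried the floxed allele with or without ERT2-Cre, and both kinds were cultured with 4-OHT for 4 days on TSt-4 cells with IL-7, SCF and Flt3L. Young adult female mice are named for the study in general, the labels give no age, and they do not say whether IdHPCs of one genotype came from one transduced culture or several. The study speaks of independent experiments, but the labels do not say which cultures or animals the numbers stand for, so p-values measure only the spread between these libraries.

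*Pcgf1* itself was examined first, because it checks the labels. Reads on its exons 2 to 7 numbered 193 and 173 in control IdHPCs and 15 and 15 in *Pcgf1*-KO IdHPCs. Among LMPPs, 84 such reads were found in the library labelled control 1 and 76 in that labelled *Pcgf1*-KO 1, but the libraries labelled control 2 and *Pcgf1*-KO 2 had 0 each. The other exons of *Pcgf1* held between 20 and 25 reads in every LMPP library. The reads on these exons therefore went against the label of 2 of the 4 LMPP libraries. LMPPs were compared by label and, separately, by the presence of these reads, with the libraries called "with" (labelled control 1 and labelled *Pcgf1*-KO 1) and "without" (labelled control 2 and labelled *Pcgf1*-KO 2). No library is renamed here. The libraries with reads are those numbered 1 and the libraries without are those numbered 2, so the state of *Pcgf1* and anything shared by a replicate number cannot be told apart.

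Granules of the neutrophil lineage are filled in sequence. Promyelocytes make the azurophil granule proteins, among them myeloperoxidase and the serine proteases. Later stages make the specific and gelatinase granule proteins, such as lactoferrin and cathelicidin. Lysozyme is made by neutrophils, monocytes and macrophages alike. Granulocyte-monocyte progenitors are known for high RNA levels of the azurophil genes, whereas lymphoid precursors carry little of them.

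The promoters of 6 genes are shown because the differences below divide them into genes that were lower in the LMPP libraries without reads on *Pcgf1* exons 2 to 7 (*Lyz2*, *Ms4a3*, *Prtn3*) and genes that did not pass the test (*Mpo*, *Ctsg*, *Elane*). Each line holds the 250 bases before the gene's start in RefSeq on GRCm38.p6, 5′ to 3′ on the gene's strand. Capitals mark matches to GAGGAA, the core bound by PU.1, or to TGTGGT, the core bound by RUNX factors, on either strand.
Lyz2, chr10:117282273-117282522, minus strand: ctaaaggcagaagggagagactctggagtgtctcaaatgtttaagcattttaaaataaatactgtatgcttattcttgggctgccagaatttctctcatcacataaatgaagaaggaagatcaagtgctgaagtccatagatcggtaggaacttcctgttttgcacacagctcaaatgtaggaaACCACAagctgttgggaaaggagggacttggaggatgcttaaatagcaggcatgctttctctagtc
Ms4a3, chr19:11640852-11641101, minus strand: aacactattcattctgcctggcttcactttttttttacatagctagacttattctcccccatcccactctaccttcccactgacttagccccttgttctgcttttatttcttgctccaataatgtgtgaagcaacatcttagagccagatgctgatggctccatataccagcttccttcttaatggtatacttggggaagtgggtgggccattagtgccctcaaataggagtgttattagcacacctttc
Prtn3, chr10:79879417-79879666, plus strand: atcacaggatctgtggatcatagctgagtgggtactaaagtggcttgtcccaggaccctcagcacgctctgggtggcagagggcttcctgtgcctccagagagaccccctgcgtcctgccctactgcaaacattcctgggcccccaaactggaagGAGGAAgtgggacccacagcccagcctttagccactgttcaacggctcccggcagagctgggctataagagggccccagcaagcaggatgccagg
Mpo, chr11:87793534-87793783, plus strand: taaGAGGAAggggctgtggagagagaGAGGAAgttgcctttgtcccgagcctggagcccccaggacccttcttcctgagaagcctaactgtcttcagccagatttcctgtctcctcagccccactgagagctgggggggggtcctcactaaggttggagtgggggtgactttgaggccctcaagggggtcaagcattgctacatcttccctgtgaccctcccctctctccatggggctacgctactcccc
Ctsg, chr14:56102575-56102824, minus strand: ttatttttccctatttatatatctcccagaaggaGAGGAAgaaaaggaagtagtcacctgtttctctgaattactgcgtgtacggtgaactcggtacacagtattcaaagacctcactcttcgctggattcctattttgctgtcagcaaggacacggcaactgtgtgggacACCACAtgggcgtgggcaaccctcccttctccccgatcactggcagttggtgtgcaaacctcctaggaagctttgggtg
Elane, chr10:79886062-79886311, plus strand: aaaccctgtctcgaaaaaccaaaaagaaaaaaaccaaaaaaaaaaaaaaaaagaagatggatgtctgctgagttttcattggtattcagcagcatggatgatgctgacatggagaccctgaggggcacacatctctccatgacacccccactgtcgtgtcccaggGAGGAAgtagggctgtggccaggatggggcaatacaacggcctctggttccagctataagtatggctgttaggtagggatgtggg
RefSeq windows of 300 bases, which run on for 50 bases past the start, were present for 9 of the 10 genes, *Hp* not being matched. GAGGAA or its complement stood in 6 of these 9 windows and in 28.3% of the 32851 windows of all genes. TGTGGT or its complement stood in 3 of 9 and in 16.8% of all. TTGCNNAA, the core bound by C/EBP factors, stood in 3 of 9 (*Ms4a3*, *Fcnb*, *Ltf*) and in 10.8% of all. In *Ms4a3* a PU.1 and a C/EBP match lie side by side in the 50 bases past the start as GAGGAATTGCACAA. Both genes that differed most, *Lyz2* and *Ms4a3*, lacked GAGGAA in the 250 bases shown. The 9 windows held 0 to 8 CpG dinucleotides, with a median of 7 over all windows. These matches describe letters in a window and were not tested as binding sites.

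Among the 10 genes, *Mpo*, *Ctsg*, *Prtn3* and *Elane* were abundant in LMPPs, and *Fcnb*, *Ltf* and *Camp* were near the limit of detection. Levels are given as CPM per kb of exon when genes are compared with each other, and as CPM when libraries are compared. *Mpo*, which encodes myeloperoxidase (chr11:87607083-87617915 in mm9, plus strand), had the highest level of the 10 genes, with a median of 709 CPM per kb over the 4 LMPP libraries. *Ctsg* (cathepsin G, chr14:56718718-56721411, minus strand) followed with 285 CPM per kb and *Prtn3* (proteinase 3, chr10:79337221-79345919, plus strand) with 255 CPM per kb. *Elane* (neutrophil elastase, chr10:79349057-79350961, plus strand) stood at 57.3 CPM per kb. *Lyz2* (lysozyme M, chr10:116714390-116719377, minus strand) stood at 44.7, *Ms4a3* (a membrane protein of granulocyte-monocyte progenitors, chr19:11703987-11715341, minus strand) at 17.7 and *Hp* (haptoglobin, chr8:112099030-112103072, minus strand) at 6.77 CPM per kb. The ranges over libraries overlapped between *Ctsg* and *Prtn3* and between *Elane* and *Lyz2*, and within each of these pairs the order changed from library to library. The ranges of *Lyz2* and *Ms4a3* overlapped as well, but *Lyz2* was above *Ms4a3* in each of the 4 libraries. *Fcnb* (ficolin B, chr2:27931898-27940405, minus strand), *Ltf* (lactoferrin, chr9:110921796-110945270, plus strand) and *Camp* (cathelicidin, chr9:109749889-109751970, minus strand) had medians of 0.195, 0.118 and 0.111 CPM per kb. They rested on 12, 19 and 5 reads over all 4 libraries and were not tested.

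**Figure D1:**
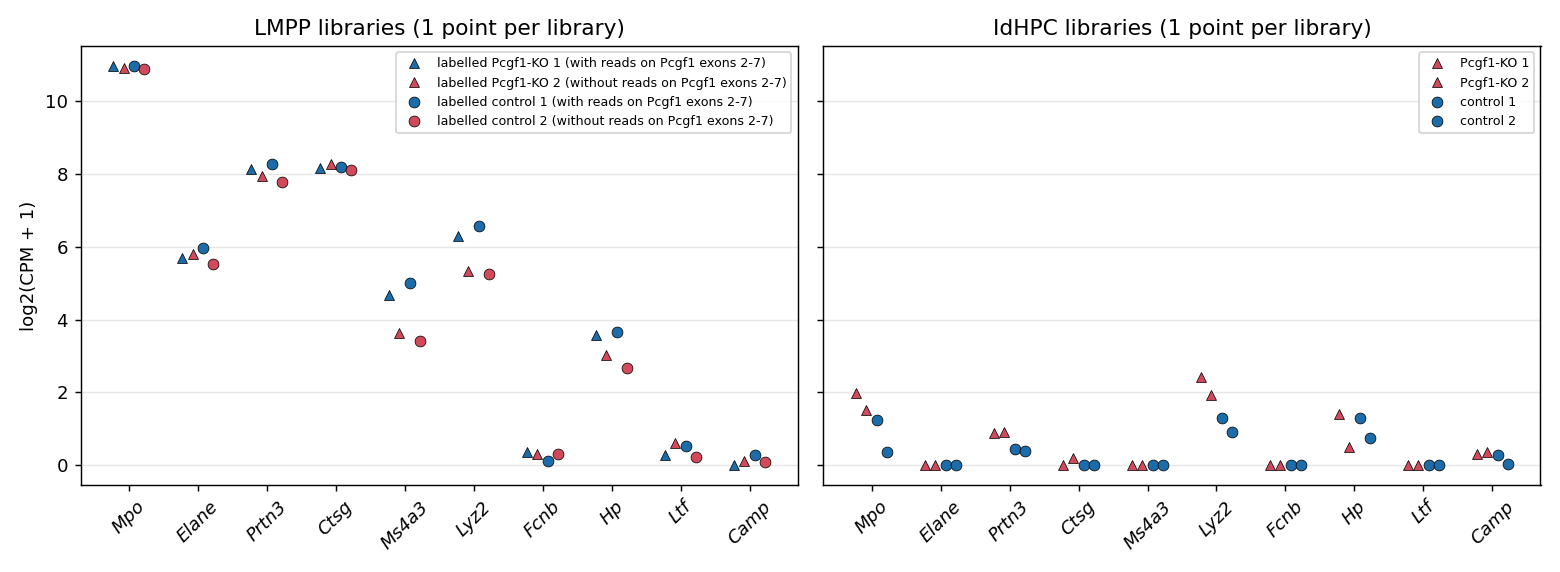
Levels of the 10 genes in every library. The y axis is log2(CPM + 1) in both panels, each point is 1 library, triangles are libraries labelled *Pcgf1*-KO and circles are control libraries. In LMPPs (left) red points are the libraries without reads on *Pcgf1* exons 2 to 7 and blue points those with reads, and in IdHPCs (right) red is *Pcgf1*-KO and blue is control. The red LMPP points lie below the blue ones for *Lyz2*, *Ms4a3*, *Hp*, *Prtn3* and, by a small margin, *Mpo*. The panels come from tables normalized separately.

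The LMPP label was read against its markers. *Flt3*, *Cd34*, *Kit* and *Ptprc* were present in all 4 LMPP libraries (*Flt3* 366 to 440 CPM, *Cd34* 721 to 800 CPM). *Ly6a*, which encodes the Sca-1 of the LSK gate, was low at 2.80 to 14.7 CPM, and *Il7r* was at 0.681 to 3.47 CPM. The cells had been cultured for 4 days before RNA was taken. Stromal marker genes were scarce in LMPPs, with 5 of 20 at 0 reads in every library and a summed level of 41.8 to 63.0 CPM, against 2461 to 2784 CPM summed over the 10 granule and lysozyme genes.

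By their labels, none of the 7 genes that could be tested passed the test in LMPPs. The test was limma's moderated fit of log2(CPM + 1) with Benjamini-Hochberg adjustment at 0.05, over the 12153 genes that reached 1 CPM in any of the 4 libraries. Of all genes 0 (0%) were called in this comparison, and 2 had an unadjusted p under 0.05. edgeR's exactTest and quasi-likelihood test and DESeq2 called 0, 0 and 0. *Mpo* was at 1996 CPM (labelled *Pcgf1*-KO 1) and 1906 CPM (labelled *Pcgf1*-KO 2), against 1992 CPM (labelled control 1) and 1874 CPM (labelled control 2). Each label thus held a higher and a lower library, and the labels overlapped. The log2 difference of *Mpo* (labelled *Pcgf1*-KO minus labelled control) was 0.01 with a 95% interval of -0.33 to 0.36. That of *Lyz2* was -0.08, but its interval ran from -1.26 to 1.09, and that of *Ms4a3* ran from -1.47 to 1.34, so these 2 genes were spread widely within each label.

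Grouped by reads on *Pcgf1* exons 2 to 7, 4 of the 7 tested genes were lower in the LMPP libraries without these reads. They were *Ms4a3*, *Lyz2*, *Hp* and *Prtn3*, while *Mpo*, *Elane* and *Ctsg* did not pass the test. In this comparison 17.2% of all 12153 tested genes were called, and 7.08% of all tested genes were called lower. The median log2 difference of the 7 genes was -0.35, beside -0.02 over all tested genes. Because 1 CPM was added before the logarithm, the differences of genes of low level come out too small. In bulk RNA, fewer cells of a type and less RNA per cell cannot be told apart.

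*Lyz2* reached 77.7 CPM (labelled *Pcgf1*-KO 1) and 93.0 CPM (labelled control 1) with the reads, against 39.6 CPM (labelled *Pcgf1*-KO 2) and 37.1 CPM (labelled control 2) without them. Both libraries without the exon reads were below both libraries with them. The log2 difference (without minus with) was -1.13 (SE 0.10, adjusted p = 1.04e-04, limma). The close paralog *Lyz1*, with which *Lyz2* can share reads, held 0, 0, 0 and 1 reads in the LMPP libraries, and how the counting treated shared reads is not stated. All 4 exons of *Lyz2* showed the same order, as seen in the plot of CPM by exon.

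*Ms4a3* was at 24.5 CPM (labelled *Pcgf1*-KO 1) and 31.3 CPM (labelled control 1) with the reads, against 11.4 CPM (labelled *Pcgf1*-KO 2) and 9.67 CPM (labelled control 2) without them. The log2 difference was -1.32 (SE 0.14, adjusted p = 2.68e-04, limma), the largest in size among the 7 genes tested. Its mean was 27.9 ± 4.78 CPM (SD, n = 2) with the exon reads and 10.5 ± 1.19 CPM (SD, n = 2) without. All 7 exons were lower in both libraries without the reads.

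*Hp*, a hemoglobin-binding acute phase protein that is also stored in granules, was at 11.0 CPM (labelled *Pcgf1*-KO 1) and 11.5 CPM (labelled control 1) with the reads, against 7.19 CPM (labelled *Pcgf1*-KO 2) and 5.41 CPM (labelled control 2) without them. The log2 difference was -0.76 (SE 0.16, adjusted p = 0.00915, limma). The call was lost without the library labelled control 2, where the log2 difference was -0.58 (adjusted p = 0.062). Its last exon held between 50.0% and 64.2% of its reads.

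Of the serine protease genes, *Prtn3* was called lower and *Elane* and *Ctsg* were not, but the genes were not tested against each other. *Prtn3* was at 280 CPM (labelled *Pcgf1*-KO 1) and 306 CPM (labelled control 1) with the reads, against 242 CPM (labelled *Pcgf1*-KO 2) and 216 CPM (labelled control 2) without them. This was a log2 difference of -0.35 (SE 0.09, adjusted p = 0.0207, limma). This call was lost without the library labelled control 1 (-0.29, adjusted p = 0.150) and without that labelled control 2 (-0.27, adjusted p = 0.160). *Elane*, the neighbour of *Prtn3* on chromosome 10, had 51.1 and 61.3 CPM with the reads and 54.4 and 45.3 CPM without, so the groups overlapped. The log2 difference of *Elane* was -0.17 (95% interval -0.43 to 0.10), and this interval overlaps that of *Prtn3* (-0.54 to -0.16). *Ctsg* had 283 and 288 CPM with the reads and 310 and 273 CPM without, and its log2 difference of 0.02 had a 95% interval of -0.16 to 0.21.

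*Mpo* had 1996 and 1992 CPM with the reads and 1906 and 1874 CPM without. The 2 groups did not overlap, as for 29.9% of all tested genes in this direction, but the log2 difference was only -0.08 (95% interval -0.26 to 0.11, adjusted p = 0.584, limma). Set against *Mpo* within each library, *Lyz2* had 38.9 (labelled *Pcgf1*-KO 1) and 46.7 (labelled control 1) CPM per 1000 CPM of *Mpo* with the reads, and 20.8 (labelled *Pcgf1*-KO 2) and 19.8 (labelled control 2) without. *Mpo* made up between 71.6% and 76.1% of the summed level of the 10 genes in each LMPP library.

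**Figure D2:**
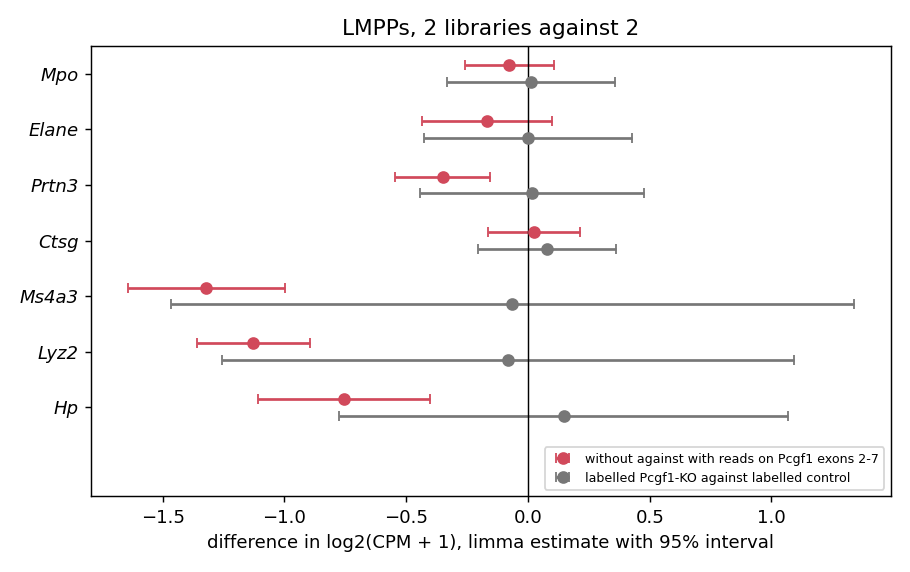
Differences in log2(CPM + 1) of the 7 tested genes in LMPPs, as limma estimates with 95% intervals over 2 libraries against 2. Red is without minus with reads on *Pcgf1* exons 2 to 7 and grey is labelled *Pcgf1*-KO minus labelled control. The red intervals of *Prtn3*, *Ms4a3*, *Lyz2* and *Hp* lie wholly below 0, and every grey interval holds 0.

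**Figure D3:**
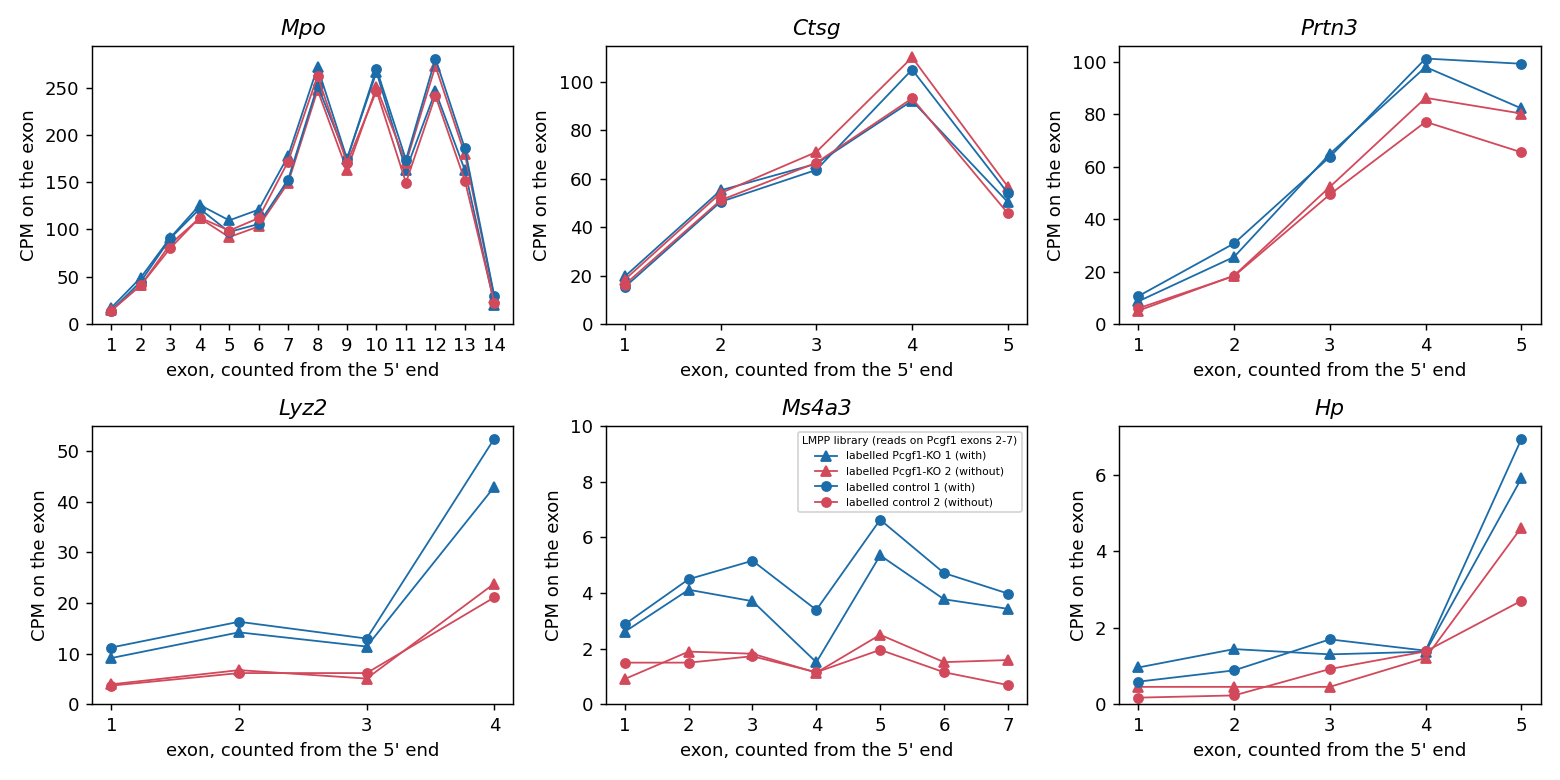
CPM on each exon, counted from the 5′ end, of 6 genes in the 4 LMPP libraries. Red lines are the libraries without reads on *Pcgf1* exons 2 to 7, blue lines those with reads, triangles the libraries labelled *Pcgf1*-KO and circles those labelled control. The red lines lie below the blue ones at 4 of 4 exons of *Lyz2*, 7 of 7 of *Ms4a3*, 5 of 5 of *Prtn3*, 4 of 5 of *Hp*, 5 of 14 of *Mpo* and 0 of 5 of *Ctsg*.

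The other genes of the pathway were read in the same comparison from lists chosen by name. Of 7 other genes listed under promyelocyte-stage granules, 6 were tested and 5 were lower in the libraries without the reads. The list also holds genes of other products, such as a receptor and a histamine enzyme. Its count therefore does not describe azurophil granule genes as a class. *Nkg7*, a granule membrane protein, had 30.9 and 35.2 CPM with the reads and 13.5 and 11.2 CPM without (log2 difference -1.35, SE 0.13, adjusted p = 1.2e-04, limma). *Clec5a*, a myeloid receptor, fell by 1.20 on the log2 scale, *Hdc*, the histidine decarboxylase that makes histamine, by 1.06, *Cst7*, a cysteine protease inhibitor, by 0.72 and *Plac8* by 0.54. *Prss57*, a further azurophil serine protease, did not pass the test (log2 difference -0.15, adjusted p = 0.50, limma). Without the exon at the 3′ end *Clec5a* was no longer called (adjusted p = 0.064), nor was *Plac8* without the library labelled control 2 (adjusted p = 0.079).

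Of 16 other genes listed under specific and gelatinase granules, 6 were tested and 2 were lower. The list is not limited to granule proteins, so this count describes the list only. *Cybb*, the catalytic subunit of the phagocyte NADPH oxidase, had 12.1 and 14.7 CPM with the reads and 2.20 and 1.84 CPM without, a log2 difference of -2.25 (SE 0.16, adjusted p = 3.59e-05, limma). Its partner subunit *Cyba* had 108 and 113 CPM with the reads and 97.1 and 90.2 CPM without, and was not called. *Padi4*, a peptidylarginine deiminase, fell by 0.40 on the log2 scale, and lost the call without the library labelled *Pcgf1*-KO 2 (adjusted p = 0.054). *Adam8* was not called.

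Of 12 genes that process, pack or inhibit granule proteins, all were tested, 2 were lower and 1 was higher. Over all tested genes, 7.08% were called lower and 10.1% higher. The protease inhibitors *Serpinb1a* and *Slpi* fell by 0.43 and 0.52, and both lost the call without the library labelled control 2 (adjusted p = 0.148 and 0.109). *Serpinb1a* also lost it without that labelled control 1 (adjusted p = 0.102). *Cd63*, a tetraspanin of lysosomes and azurophil granules, was higher without the reads, with 196 and 177 CPM against 107 and 113 CPM (log2 difference 0.75, SE 0.08, adjusted p = 2.86e-04, limma). The chaperones *Calr* and *Canx* and the granule proteoglycan core protein *Srgn* were not called.

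All 18 lysosomal enzyme genes were tested, and 6 were lower. *Ctss* (cathepsin S) had 50.9 and 55.8 CPM with the reads and 15.0 and 10.6 CPM without (log2 difference -2.00, SE 0.15), and *Lgmn* (legumain) had 20.9 and 22.8 CPM against 5.30 and 6.39 CPM (log2 difference -1.74, SE 0.14). *Ctsz*, *Psap*, *Grn* and *Gusb* fell by 0.46, 0.45, 0.44 and 0.36. *Gusb* lost its call without either library labelled *Pcgf1*-KO (adjusted p = 0.098 without 1 and 0.057 without 2). The most abundant lysosomal protease genes besides these, *Ctsd* and *Ctsb*, did not pass the test, nor did *Man2b1*.

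Of 12 myeloid transcription factor genes, all tested, 5 were higher and 3 were lower without the reads, beside 10.1% of all genes called higher. The higher ones were *Cebpa* (log2 difference 0.34), *Cebpb* (0.39), *Gfi1* (0.78), *Rara* (0.31) and *Rxra* (0.94). Leaving out single libraries ended the call on *Cebpa* without labelled *Pcgf1*-KO 2 or control 1 (adjusted p of 0.069 and 0.076), on *Cebpb* without any but labelled control 1 (0.060 to 0.154) and on *Rara* without any of the 4 (0.075 to 0.206). The lower ones were *Irf8*, with 557 and 545 CPM with the reads and 338 and 355 CPM without (log2 difference -0.67, SE 0.07, adjusted p = 2.91e-04, limma), *Klf4* (-1.09) and *Sfpi1*, which encodes PU.1 (-0.28). *Sfpi1* was called only barely (adjusted p = 0.043) and lost the call under 11 of 14 alternatives. *Myb* and *Runx1* did not pass the test.

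**Figure D4:**
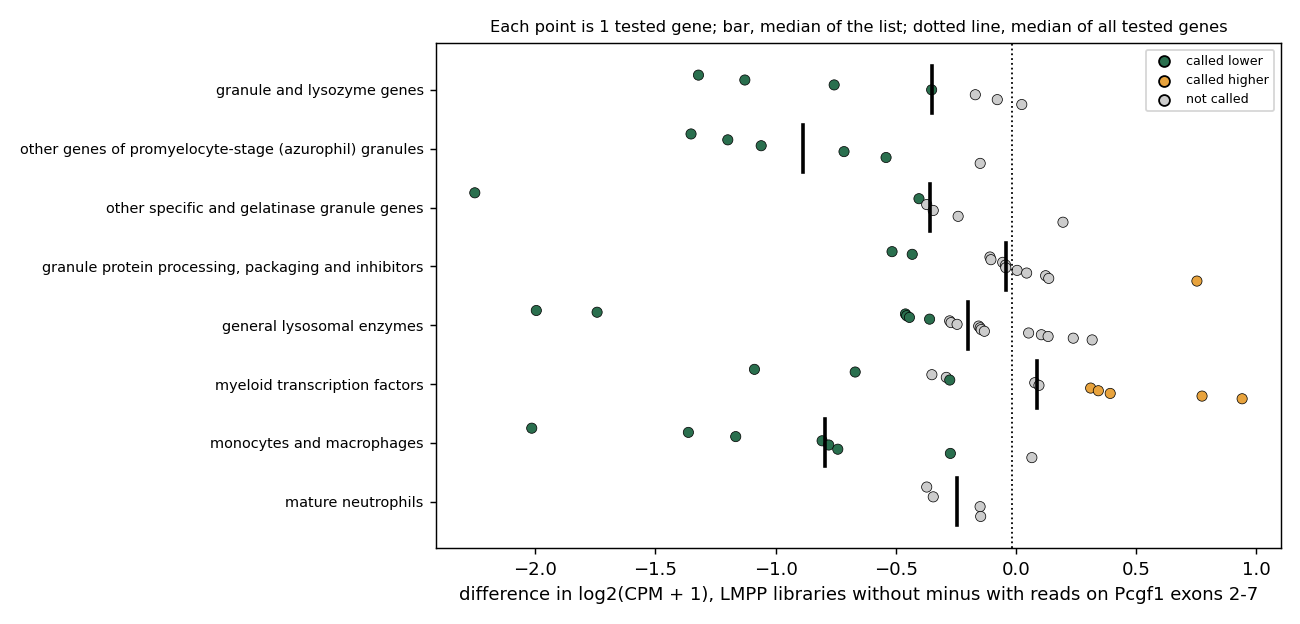
Differences in log2(CPM + 1) between the LMPP libraries without and with reads on *Pcgf1* exons 2 to 7, for the tested genes of 8 lists. Each point is 1 gene, green where called lower, orange where called higher and grey where not called, the black bar is the median of the list and the dotted line the median of all tested genes (-0.02). The medians of the granule and lysozyme genes (-0.35), the other promyelocyte-stage list (-0.89) and the monocyte and macrophage markers (-0.79) lie to the left of the dotted line. The promyelocyte-stage list is not limited to granule proteins. The transcription factors fall on both sides of the dotted line.

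Markers of monocytes and macrophages moved with *Lyz2* and *Ms4a3*. Of 12 markers, 8 were tested and 7 were lower in the libraries without the reads, and their summed level was 738 to 754 CPM with the reads and 457 to 469 CPM without. *Csf1r*, the M-CSF receptor, had 118 and 114 CPM with the reads and 49.2 and 52.9 CPM without, and *Ms4a6c* had 54.7 and 53.4 CPM against 14.3 and 11.1 CPM. The macrophage complement gene *C1qa* was at 0 in all 4 libraries, and *C1qb* had 4 reads in all. Of 8 matched markers of mature neutrophils, 4 were tested and 0 were called, with a summed level of 82.2 to 89.0 CPM with the reads and 73.2 to 78.0 CPM without. *S100a8* and *S100a9* stayed at 1.25 CPM or below in every library. Of 8 mast cell and basophil markers, 4 were tested. One of them, *Cma1*, was called higher without the reads, but it had 19 and 12 reads against 2 and 0 and passed the filter on low values only through the libraries where it is high, so its call supports nothing. The summed level of the list was 44.7 to 50.8 CPM with the reads and 37.6 to 45.9 CPM without. Of 9 erythroid and megakaryocyte markers, 5 were tested and *Pf4* and *Itga2b* were higher without the reads. *Epor* was called higher as well, but it too reached 1 CPM only in the libraries where it is high. The list had a summed level of 130 to 143 CPM with the reads and 209 to 248 CPM without. Of 8 B lineage markers, 2 were tested and 1, *Blnk*, was lower, with a summed level of 19.8 to 25.7 CPM with the reads and 15.5 to 16.1 CPM without. Among progenitor markers *Kit* was called higher and *Ly6a*, *Il7r* and *Dntt* lower. The part of these cell types in the differences of the granule and lysozyme genes was not tested.

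In IdHPCs the same genes were scarce or absent. *Elane*, *Ms4a3*, *Fcnb* and *Ltf* had 0 reads in all 4 libraries, where 3 reads, the limit that a count of 0 allows, correspond to 0.086 to 0.141 CPM per library. *Ctsg* had 3 reads, all in *Pcgf1*-KO 2. *Lyz2* had the highest median, 1.61 CPM per kb, followed by *Hp* (0.792), *Prtn3* (0.590), *Mpo* (0.587) and *Camp* (0.383). The ranges over libraries of each of these neighbours overlapped, although *Lyz2* was above *Hp*, and *Mpo* above *Camp*, in each of the 4 libraries. The IdHPC and LMPP tables were normalized separately, so levels were not tested across them. Side by side, *Mpo* was at 0.287 to 2.91 CPM in IdHPCs and at 1874 to 1996 CPM in LMPPs. Among IdHPC markers *Flt3* was at 425 to 631 CPM and *Il7r* at 47.0 to 83.8 CPM.

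No granule or lysozyme gene was called between *Pcgf1*-KO and control IdHPCs. Only *Mpo*, *Lyz2* and *Hp* passed the filter on low values and were tested among 12273 genes, of which 0.53% were called. *Lyz2* stood at 4.35 CPM in *Pcgf1*-KO 1 and 2.78 CPM in *Pcgf1*-KO 2, against 1.44 CPM in control 1 and 0.888 CPM in control 2. Both *Pcgf1*-KO libraries were above both controls, with a log2 difference of 1.07 (SE 0.32, adjusted p = 0.152, limma). The adjusted p was 0.029 with the replicate number as a block and 0.037 by edgeR's exactTest on the recovered reads, and over 15 alternatives it lay between 0.029 and 1. *Mpo* stood at 2.91 CPM (83 reads) in *Pcgf1*-KO 1 and 1.88 CPM (40 reads) in *Pcgf1*-KO 2, against 1.35 CPM (44 reads) in control 1 and 0.287 CPM (10 reads) in control 2. Its log2 difference was 0.95 (SE 0.36, adjusted p = 0.262, limma). Both *Pcgf1*-KO libraries lay above both controls for *Mpo* and *Lyz2*, as they did for 25.6% of all tested genes.

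*Hp* stood at 1.65 and 0.423 CPM in *Pcgf1*-KO IdHPCs and at 1.44 and 0.688 CPM in the controls, so that the groups overlapped, and its log2 difference was -0.06 (95% interval -0.89 to 0.77). *Prtn3* stayed under 1 CPM, with 0.843 CPM (24 reads) in *Pcgf1*-KO 1 and 0.894 CPM (19 reads) in *Pcgf1*-KO 2, and 0.367 and 0.315 CPM (12 and 11 reads) in the controls. *Camp* had 7, 6, 7 and 1 reads in *Pcgf1*-KO 1, *Pcgf1*-KO 2, control 1 and control 2. Neither was tested. Of the 12 genes that process, pack or inhibit granule proteins, *Cd63* was called higher, at 270 CPM in *Pcgf1*-KO 1 and 258 CPM in *Pcgf1*-KO 2, against 102 CPM in control 1 and 80.5 CPM in control 2 (log2 difference 1.53, SE 0.22, adjusted p = 0.020, limma). The call on *Cd63* was lost without control 2 (adjusted p = 0.200), without a filter (0.171) and without the exon at the 3′ end (0.308). None of the other tested genes in the 5 pathway lists was called in IdHPCs (0 of 5, 0 of 2, 0 of 18 and 0 of 11 in the remaining lists), and the median log2 difference over all genes was 0.01.

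Markers of the TSt-4 feeder cells stood beside these values. Of 20 stromal markers, 18 were tested and 2 (*Col1a2* and *Sparc*) were called higher, beside 0.53% of all tested genes called in either direction. Of the tested markers, 16 were higher in both *Pcgf1*-KO libraries than in both controls, as were 25.6% of all tested genes. The summed level of the 20 markers was 6427 to 8289 CPM in *Pcgf1*-KO and 3558 to 4080 CPM in control IdHPCs, while *Lum* and *Dcn* were at 0. Monocyte and macrophage markers summed to 15.5 to 22.8 CPM in *Pcgf1*-KO and 21.9 to 23.4 CPM in control IdHPCs, with *C1qa* and *C1qb* at 0. The exon nearest the 3′ end took 28.9% of the reads of well covered genes in *Pcgf1*-KO 2, against 23.8% to 25.4% in the other IdHPC libraries. The part of any of these in the values of *Lyz2*, *Mpo* and *Cd63* was not tested.

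The genes most like *Mpo* over the 8 libraries were *Fabp5*, *Aco1*, *Ltbr*, *Cela1* and *Tada2a*, with Pearson's r of 0.98 to 0.99 among 11248 genes, on log2(CPM + 1) centred within each table. Of the granule and lysozyme genes that passed the filter in both tables, *Lyz2* had an r of 0.72 and *Hp* of 0.34. These are descriptions over 8 libraries that share 2 tables. The variation of *Mpo* on this scale lies almost wholly among the IdHPC libraries, where it is scarce.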

How the data were processed

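Poly(A) RNA was sequenced on an Illumina HiSeq in 8 libraries. The authors deposited CPM for 284716 exons per cell type, aligned to mm9. The paper names HISAT2, Rsubread and edgeR, whereas the submitters' processing notes list TopHat2 (2.0.13) and edgeR. The CPM were divided by the CPM of 1 read, which gave whole reads for 100% of values (tolerance 0.01 reads). These came to 15722759 to 25302206 reads on distinct exons in IdHPCs and 9618849 to 12578784 in LMPPs. Exons identical to the exon before them in all libraries were counted once (58624 of 220394 exons with reads, 26.0% to 27.7% of the reads of a library) and the rest summed per symbol. For *Ltf* this also merged 3 of 17 exons at low counts. Limits on a count of 0 take 3 reads and cover counting error only, since the reads carry no molecular identifiers and so may repeat molecules.

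The 2 tables were normalized separately and each was tested alone, with limma (3.58.1, R 4.3.3) on log2(CPM + 1), a mean-variance trend, 2 libraries against 2, a filter that kept genes reaching 1 CPM in any library, and Benjamini-Hochberg adjustment over all of them at 0.05. The design had named *Pcgf1*-KO against control in each cell type, plus LMPPs without against with reads on *Pcgf1* exons 2 to 7. edgeR (4.0.16; exactTest, quasi-likelihood test) and DESeq2 (1.42.0) on the recovered reads, and other settings, were alternatives. All tests were checked on simulated counts. The genes and lists were chosen with earlier results of these data known. Named genes are all 10 granule and lysozyme genes, *Pcgf1*, the called genes of 5 further pathway lists, the 4 most abundant of each list, and the 5 most like *Mpo*. Among markers, single genes were picked after their values were seen. Promoter windows are RefSeq's on GRCm38.p6. Gene coordinates are those of the mm9 annotation. All symbols of the lists were matched, some through RefSeq synonyms, except *Ly6g*. The same-numbered libraries of the 2 genotypes deviated together with r = 0.15 across genes in IdHPCs and 0.71 in LMPPs, over 2 pairs each. One marker gene is not reported here.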

Additional observations from a re-analysis of the deposited data

Results flagged for a closer look

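*Lyz2* and *Mpo* were ordered in opposite directions in the 2 cell types, in every library. In IdHPCs both *Pcgf1*-KO libraries were above both controls, with log2 differences of 1.07 for *Lyz2* and 0.95 for *Mpo*. In LMPPs both libraries without reads on *Pcgf1* exons 2 to 7 were below both libraries with them, with log2 differences of -1.13 for *Lyz2* and -0.0772 for *Mpo*. The difference between the cell types was not tested, because the tables were normalized separately, and the LMPP groups are not those of the labels. The *Mpo* difference in LMPPs and both IdHPC differences did not pass the test within their own table. Such orders were common, being held by 25.6% of all tested genes in IdHPCs and by 29.9% in LMPPs.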

How the results depend on the processing

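In LMPPs grouped by *Pcgf1* exon reads, *Lyz2* and *Ms4a3* stayed lower and called under all 14 alternatives, with log2 differences of -1.26 to -1.0 and -1.49 to -1.15. *Prtn3* lost its call without a trend (adjusted p = 0.098), without the library labelled control 1 and without that labelled control 2. Between 2 and 4 of the genes described here were called lower when 1 library was left out. Over all genes, leaving out 1 library gave 747 to 1211 higher and 544 to 736 lower, DESeq2 547 lower, and leaving out each gene's last exon, an alternative chosen after seeing the data, 757 higher and 418 lower. *Ctsg*, not called, lay between -0.0676 and 0.12 when a library was left out.

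In IdHPCs the 33 higher and 32 lower genes became 0 and 0 without a filter, 0 and 3 without each gene's last exon, 466 and 163 by exactTest, 341 and 153 by DESeq2, and 0 to 234 and 14 to 591 when 1 library was left out. Summing all listed exons gave 19 higher, and the quasi-likelihood test 77 higher. The median log2 difference of *Mpo*, *Lyz2* and *Hp*, 0.95, was 1.54 with a pseudocount of 0.1, 1.56 by both edgeR tests and 1.53 by DESeq2. exactTest called 1 of the genes, *Lyz2*. *Hp*, not called, lay between -0.51 and 0.39 when a library was left out.

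With the replicate number as a block, IdHPCs gave 484 higher and 185 lower genes with 1 of the genes described here, *Lyz2*, called higher, and LMPPs by label gave 3 higher. In LMPPs by label the block is the same as adjusting for *Pcgf1* exon reads, and in LMPPs by exon reads it could not be fitted beside the groups. The labels do not say that a number marks a shared experiment. In LMPPs by label the genes described here were not called under any of 15 alternatives. The sign of *Ctsg* held under all 15, and that of the other 6 tested genes turned under some. When a library was left out, *Mpo* lay between -0.0305 and 0.0579, *Elane* between -0.21 and 0.21, *Prtn3* between -0.23 and 0.27, *Ms4a3* between -0.86 and 0.73, *Lyz2* between -0.73 and 0.57, *Hp* between -0.34 and 0.63 and *Pcgf1* between -0.96 and 1.11. *Elane* was at 0.0022 after median-ratio rescaling and at 0.0155 without the last exon, and *Pcgf1* at -0.11 by exactTest, -0.0932 by the quasi-likelihood test and -0.11 by DESeq2. With only labelled *Pcgf1*-KO 2 against labelled control 1, 1 library each and no test, the median log2 difference of the 7 genes was -0.33. The cause of these changes was not tested. *Fcnb*, *Ltf* and *Camp* had at most 7 reads in any library, and no test was made of them in the main setting.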
